A study of Homo sapiens with 8 samples.

Results

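The regions described are the 10446 promoter peaks of H3K9ac (acetylation of lysine 9 of histone H3) that were present in KGN cells with butyrate and overlapped a peak in control cells. They were chosen from the peak lists of 2 chromatin immunoprecipitation sequencing (ChIP-seq) libraries. Rows of the butyrate list that shared bases were merged on chromosomes 1 to 22 and X. A merged peak was kept when it overlapped a merged control peak by at least 1 bp and when its centre lay at most 1000 bp from the closest annotated gene start in the deposited distance column. Of the 79356 merged butyrate peaks, 23% overlapped a control peak. The kept promoter peaks were 13.2% (95% interval 12.9 to 13.4) of the butyrate peaks and 64.4% (63.7 to 65.2) of the 16209 butyrate peaks that met the promoter limit. The choice used presence in both H3K9ac lists, so widths, heights and folds of these peaks come from the contrast that chose them and are given as a description, with no test.

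KGN is an established cell line grown from a human granulosa cell tumour; granulosa cells surround the oocyte and make oestrogen. All cells were labelled passages 5 to 8 of this line and shared the same serum-supplemented medium. The treated cells received 1 mM butyrate for 6 h, and the control cells were held without it. Each condition has 1 library each for H3K9ac, for acetylation of lysine 16 of histone H4 (H4K16ac), for nonspecific immunoglobulin (IgG) and for input chromatin, which makes 8 samples, and the inputs were not used here. The depth implied by the H3K9ac lists was 29.4 M reads with butyrate and 24.3 M in control, for an assumed genome of 2.7 Gb. It was derived from the lowest background pileup of each list, with the narrowest peak taken as the fragment length. With 1 library a condition, every difference below is a difference between 2 libraries, no p-value is given, and intervals are exact (Clopper-Pearson) or order-statistic 95% intervals that cover counting alone. A change in the number of cells that carry the mark and a change in the mark per cell cannot be told apart.

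H3K9ac is placed mainly by the acetyltransferases KAT2A and KAT2B and removed by histone deacetylases, and it marks the nucleosomes that flank the start of active genes. The start itself is usually kept free of nucleosomes, so the mark falls on both sides of it. Butyrate is a short-chain fatty acid, made by gut bacteria, that inhibits class I and class IIa histone deacetylases. Many promoters of genes that every cell uses lie in CpG islands, stretches rich in the CpG dinucleotide, and hold sites for general activators such as Sp1 (the GC box), ETS family factors, NRF1 and YY1.

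The promoter sequences of 6 genes with a kept peak are shown because they hold the motifs whose shares are compared next. Each runs from 250 bases before to 50 bases after a RefSeq start on GRCh38.p14 and overlaps the kept peak of its gene. Capitals mark matches, on either strand, to the GC box GGGCGG, the TATA box TATAAA, the CCAAT box CCAAT, the ETS core CCGGAAG, the YY1 core AAGATGG, the E-box CACGTG and the CRE core TGACGT. FOXL2 (chr3:138947088-138947387, minus strand) encodes the transcription factor that maintains granulosa identity. PPARG (chr3:12288810-12289109, plus strand) encodes a nuclear receptor for fatty acids. UQCRC1 (chr3:48609597-48609896, minus strand) encodes a core subunit of respiratory complex III. PSMD12 (chr17:67366528-67366827, minus strand) encodes a regulatory subunit of the proteasome, AARS1 (chr16:70289457-70289756, minus strand) the alanyl-tRNA synthetase and CDKN2C (chr1:50960495-50960794, plus strand) an inhibitor of the cell cycle kinases CDK4 and CDK6. FOXL2 and PPARG were anchor genes, and the others had the highest deposited −log10 q of their gene list among members that qualified for printing.
FOXL2: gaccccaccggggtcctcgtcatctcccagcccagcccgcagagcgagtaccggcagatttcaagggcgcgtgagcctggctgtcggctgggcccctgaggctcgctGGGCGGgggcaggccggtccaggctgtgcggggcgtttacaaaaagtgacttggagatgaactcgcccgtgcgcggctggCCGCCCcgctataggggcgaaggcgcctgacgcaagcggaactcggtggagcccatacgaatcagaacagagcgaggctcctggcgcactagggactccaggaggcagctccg
PPARG: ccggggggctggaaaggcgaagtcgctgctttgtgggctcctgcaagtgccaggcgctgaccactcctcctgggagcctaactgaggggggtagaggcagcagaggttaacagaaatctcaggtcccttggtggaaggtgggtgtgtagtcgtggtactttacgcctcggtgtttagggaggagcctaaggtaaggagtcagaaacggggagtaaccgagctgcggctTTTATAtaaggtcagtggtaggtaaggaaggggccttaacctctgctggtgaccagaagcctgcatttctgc
UQCRC1: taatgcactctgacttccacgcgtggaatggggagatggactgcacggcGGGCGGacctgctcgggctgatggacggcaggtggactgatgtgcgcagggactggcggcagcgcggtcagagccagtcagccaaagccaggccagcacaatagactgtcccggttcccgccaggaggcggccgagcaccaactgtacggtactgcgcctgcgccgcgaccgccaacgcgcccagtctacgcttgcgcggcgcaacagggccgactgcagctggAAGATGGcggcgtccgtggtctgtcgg
PSMD12: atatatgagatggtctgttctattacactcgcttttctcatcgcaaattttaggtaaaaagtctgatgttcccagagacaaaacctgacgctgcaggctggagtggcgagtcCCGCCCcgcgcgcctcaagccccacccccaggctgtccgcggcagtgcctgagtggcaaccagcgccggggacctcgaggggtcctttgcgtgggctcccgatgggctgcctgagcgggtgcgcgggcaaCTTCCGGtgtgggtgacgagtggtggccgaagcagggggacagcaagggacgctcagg
AARS1: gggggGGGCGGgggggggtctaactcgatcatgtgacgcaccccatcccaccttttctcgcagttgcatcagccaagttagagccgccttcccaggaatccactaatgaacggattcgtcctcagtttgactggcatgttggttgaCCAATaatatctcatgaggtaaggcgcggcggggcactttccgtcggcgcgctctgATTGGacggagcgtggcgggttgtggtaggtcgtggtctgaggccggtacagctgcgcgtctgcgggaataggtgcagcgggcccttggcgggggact
CDKN2C: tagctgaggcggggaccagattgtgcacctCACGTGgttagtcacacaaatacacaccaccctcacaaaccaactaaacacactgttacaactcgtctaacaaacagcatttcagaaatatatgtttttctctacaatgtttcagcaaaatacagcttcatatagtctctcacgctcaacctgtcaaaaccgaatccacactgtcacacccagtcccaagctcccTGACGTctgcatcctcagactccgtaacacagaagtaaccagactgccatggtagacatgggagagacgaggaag

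FOXL2 held 2 GC boxes and none of the other searched motifs, and its window had 28 CpG and a GC content of 68%. PPARG held a TATA box alone and 10 CpG. UQCRC1 held a YY1 core and 1 GC box, PSMD12 an ETS core and a GC box, and AARS1 2 CCAAT boxes and a GC box. CDKN2C, with 8 CpG, held an E-box and a CRE core. The NRF1 core CGCATGC was searched too, and none of the 6 windows held it. A match is a description of the letters in the window and not evidence that a factor bound there.

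Sequence is independent of the rule, and promoters with a kept peak differed in it from promoters with a gained one and from promoters with none. The RefSeq table held 22132 windows of 15812 protein-coding genes. Of these, 8558 windows overlapped a kept promoter peak, 941 overlapped a gained promoter peak (present with butyrate and with no control peak) and 9511 overlapped no H3K9ac peak of either list. The remaining 3122 windows overlapped other H3K9ac peaks, such as shared peaks whose centre lay beyond the limit. The median CpG count was 27 in windows with a kept peak, 21 in windows with a gained one and 7 in windows with none, and the median GC content was 66.3%, 65.3% and 54.3%.

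The ETS core CCGGAAG stood in 22.5% (21.6 to 23.4) of the windows with a kept peak, against 5.95% (4.53 to 7.66) of those with a gained peak, 4.01% (3.62 to 4.42) of those with none and 12.8% of all windows. The YY1 core AAGATGG stood in 8.27% (7.70 to 8.88), 2.66% (1.73 to 3.90) and 4.09% (3.70 to 4.51), and in 6.05% of all. The NRF1 core CGCATGC was found in 6.86% of windows with a kept peak, 3.19% with a gained one, 2.39% with none and 4.63% of all. These 3 motifs were thus more frequent at kept promoter peaks than at gained ones or where there was no peak, with intervals that did not overlap. In the 3122 windows with other H3K9ac peaks the shares were 15.2% (13.9 to 16.5) for the ETS core, 6.92% (6.05 to 7.87) for the YY1 core and 5.80% (5.00 to 6.68) for the NRF1 core, and the intervals of the YY1 and NRF1 cores overlapped those of the kept class. The GC box was found in 74.4%, 66.5% and 34.2% and in 56.3% of all windows, the CRE core in 11.9%, 6.16% and 6.16% and in 8.92% of all, and the E-box in 10.3%, 6.48% and 6.13% and in 8.34% of all. For these motifs too, the interval of the kept class overlapped neither of the others. The intervals were 73.5 to 75.4, 63.4 to 69.5 and 33.2 to 35.1 for the GC box. They were 11.2 to 12.6, 4.71 to 7.90 and 5.69 to 6.66 for the CRE core. For the E-box they were 9.69 to 11.0, 4.99 to 8.25 and 5.66 to 6.63. The TATA box went the other way, with 4.08% at kept peaks, 7.97% at gained ones, 15.8% where there was no peak and 9.46% of all windows. The CCAAT box was found in 34.5% at kept peaks, 29.1% at gained ones, 35.2% where there was no peak and 34.6% of all windows. Each motif was counted on its own, the ETS and YY1 cores can share the letters AAG, and several genes have more than 1 window.

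Because the classes differ in CpG content, the shares were also taken among windows with 21 to 35 CpG alone, a range chosen after the shares had been seen. It held 4422 windows with a kept peak, 299 with a gained one and 1583 with none, of median GC content 66.3%, 69% and 68.3%. The GC box no longer stood out, at 78.0%, 84.6% and 78.3%. The ETS core was still found in 25.9% (24.6 to 27.2) of the kept class, against 10.0% (6.87 to 14.0) of the gained class and 8.40% (7.08 to 9.88) of windows with no peak. The YY1 core was found in 8.55% (7.74 to 9.41), 2.01% (0.740 to 4.32) and 1.96% (1.33 to 2.77). The NRF1 core was found in 8.37% (7.57 to 9.22), 4.68% (2.58 to 7.73) and 4.04% (3.13 to 5.13), so that the kept and gained classes were no longer apart. The E-box, at 10.5% in the kept class and 8.36% (5.48 to 12.1) in the gained one, was not apart either. The CRE core was found in 12.8% (11.9 to 13.9), 8.03% (5.21 to 11.7) and 8.72% (7.37 to 10.2). The TATA box was found in 2.78% (2.32 to 3.31), 8.36% (5.48 to 12.1) and 4.93% (3.91 to 6.11). For both, the interval of the kept class overlapped neither of the others. The CCAAT box was found in 35.7% (34.2 to 37.1), 33.4% (28.1 to 39.1) and 29.7% (27.4 to 32.0). Among kept promoters, windows with an ETS core had a median width ratio, butyrate over control, of 1.07, against 1.15 without one, and a height ratio of 0.791 against 0.829. Windows with a YY1 core had a median height ratio of 0.767, against 0.826 without one. Such differences were not particular to these motifs. The ratio was 0.767 with an NRF1 core and 0.823 without one, and 0.830 with a GC box and 0.791 without one. Control peaks were also higher at windows with an ETS or a YY1 core, at a median of 13.9 against 13.4 for each. Tall control peaks had lower ratios in general, as given below, and the part of control height was not tested.

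Kept promoter peaks were on balance wider with butyrate and, relative to the background of each library but not on the bare pileup, lower. Their median width was 1314 bp (1293 to 1335) with butyrate and 1183 bp (1159 to 1202) in control, where the control width is the outer span of the control peaks that a kept peak overlaps. The median of the width ratios was 1.13 (1.12 to 1.14), and 63.6% of kept peaks were wider with butyrate. A ratio of at least 1.5 was reached by 2775 peaks or 26.6% (25.7 to 27.4), against 33.1% of all 18267 butyrate peaks that overlap a control peak, and 13.4% were at least 1.5 times as wide in control, against 14.4%. The kept promoter peaks held 26.7% of all bases in the butyrate list, and the control peaks they overlap held 63.3% of the bases in the control list. Width depends on how rows are joined: with rows up to 500 bp apart merged, 42.2% of kept peaks were at least 1.5 times as wide with butyrate.

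Height is the highest pileup of overlapping fragments in a peak, recovered from the deposited fold and −log10 p. It is divided by the lowest background pileup of its library (2.73 fragments with butyrate, 2.09 in control). The control height is the highest over all control peaks that a kept peak overlaps, including parts that it does not cover. The median height was 10.3 with butyrate and 12.4 (12.4 to 12.9) in control, the median height ratio was 0.821 (0.818 to 0.827), and 75.5% (74.6 to 76.3) of kept peaks were lower with butyrate. A height at least 1.5 times as high with butyrate was found for 2.69% of kept peaks, against 4.33% of all peaks in both lists, and at least 1.5 times as high in control for 21.4%, against 21.2%. The direction rests on the scaling. On the bare pileup, with no allowance for the deeper butyrate library, the median was 28 fragments with butyrate and 26 in control. There the median ratio was 1.07 and 37.6% of kept peaks were lower. Pileup scaled to the implied depth of each library gave a ratio of 0.889 and 65.9% lower. That depth rests on the same lowest background and on the narrowest peak, 251 bp with butyrate and 232 bp in control. The depth scale is therefore not independent of the background scale. The authors' own fold at the summit, the ratio of the pileup to its local background, had a median of 5.66 with butyrate and 6.15 in control, and a median ratio of 0.927 (0.917 to 0.933). It was at least 1.5 times as high with butyrate at 8.07% of kept peaks (9.31% of all peaks in both lists) and in control at 17.1% (16.9%). Since the contrast chose the peaks, nothing is read from these shares.

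**Figure D1:**
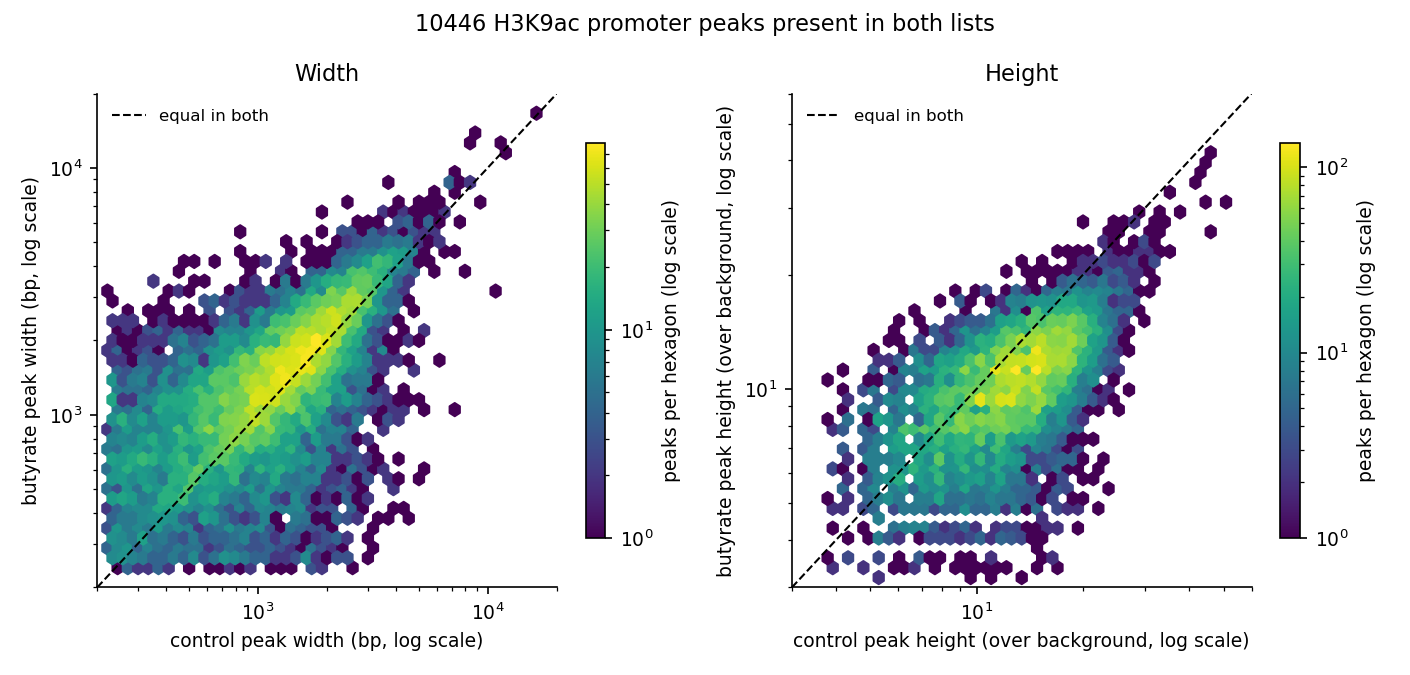
Width (left, bp) and height (right, pileup over library background) of the 10446 kept promoter peaks with butyrate (vertical axis) and in control (horizontal axis), on log scales, with hexagons coloured by the number of peaks. The median width is 1314 bp with butyrate and 1183 bp in control, and the median height is 10.3 and 12.4.

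Width and height did not move together at every peak. Wider and lower with butyrate were 43.7% of the kept peaks, 31.8% were lower without being wider, 19.9% were wider and at least as high, and 4.65% were neither wider nor lower. The change followed the size of the control peak. The groups were formed on the control value, which also enters the ratio, so sorting alone sets a trend in this direction, and its part was not tested. In the quartile with the narrowest control peaks the median width was 729 bp with butyrate and 457 bp in control, a ratio of 1.69, and in the quartile with the widest it was 2382.5 and 2361.5 bp, a ratio of 0.997. In the quartile with the lowest control peaks the median height was 8.06 with butyrate and 7.65 in control, a ratio of 1.05, and in the quartile with the highest it was 12.8 and 17.7, a ratio of 0.701. The butyrate values thus span a narrower range than the control values over the same quartiles.

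**Figure D2:**
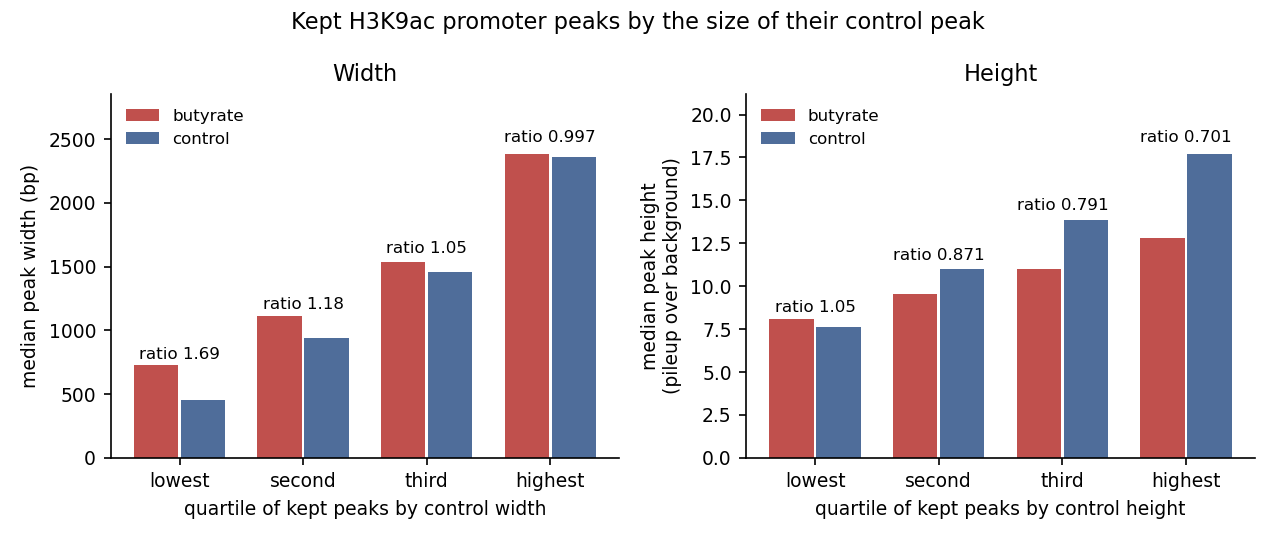
Median width (left, bp) and median height (right, pileup over library background) of the kept promoter peaks with butyrate and in control, by quartile of the control width or the control height. Width ratios run from 1.69 in the lowest to 0.997 in the highest quartile, and height ratios from 1.05 to 0.701.

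Of the kept peaks, 66.6% paired with 1 control peak that no other butyrate peak overlapped. At least 2 control peaks were joined by 18.7% and at least 3 by 2.43%, and 17.5% had a control peak that another butyrate peak also overlapped, which some of the joining peaks did too. Among the 1 to 1 pairs the median width was 1220.5 bp with butyrate and 905.5 bp in control, a ratio of 1.26. POLR2L, BCL3 and SNCG joined most, 5 control peaks each. POLR2L encodes a subunit shared by the nuclear RNA polymerases, and its peak (chr11:838344-847255) was 8912 bp wide with butyrate and spanned 7014 bp in control. BCL3 encodes a nuclear partner of NF-kappa-B, and its peak (chr19:44745031-44753432) was 8402 bp wide with butyrate and spanned 6669 bp in control. SNCG, a synuclein gene, had a peak of 5652 bp with butyrate and a span of 5768 bp in control.

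The 5 widest kept peaks lay at TFAP2A, HOXA10, LAMA5, POLR2L and ADM. TFAP2A, a transcription factor of the epidermis and neural crest, had a peak of 16830 bp with butyrate (chr6:10404590-10421419) and of 16252 bp in control. Its height was 19.8 with butyrate and 31.1 in control, a ratio of 0.637 (0.436 to 0.928). HOXA10, a homeobox gene of the developing reproductive tract, had 12807 bp with butyrate and 11670 bp in control. LAMA5, a laminin chain of basement membranes, had 12506 bp with butyrate and 8033 bp in control. Adrenomedullin, a vasodilator peptide encoded by ADM, had 8833 bp with butyrate and 6880 bp in control. TFAP2A was thus of nearly the same width in both libraries, and LAMA5 extended by 3704 bp on the upstream side.

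The largest width ratios among peaks of at least 500 bp in control were at HSD11B2, ZNF771, SLC25A23, SLC39A13 and HIP1R. HSD11B2 encodes the enzyme that inactivates cortisol, and its peak (chr16:67427893-67433401) measured 5509 bp with butyrate and 836 bp in control, with a height of 15.4 and 11.5. ZNF771, a zinc finger gene, measured 4054 bp with butyrate and 653 bp in control. SLC39A13, a zinc transporter, measured 2642 bp with butyrate and 509 bp in control and its height was 11.4 and 6.69. The counting interval of that height ratio (0.877 to 3.45) includes 1, as did that of HSD11B2 (0.794 to 2.32). SLC25A23, a mitochondrial carrier, and HIP1R, an endocytic adaptor, measured 3523 and 2851 bp with butyrate and 580 and 597 bp in control.

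The smallest width ratios came from short butyrate peaks that overlapped long control ones, at SP3 and PDXK across 1 edge alone. The control height is taken over the whole control peak, so a short butyrate peak is set against summits that it may not cover. At IFRD1 a butyrate peak of 251 bp (chr7:112452902-112453152) overlapped a control peak of 3012 bp, with a height of 4.03 with butyrate and 15.8 in control. At SP3, a transcription factor that binds GC boxes, the widths were 373 bp with butyrate and 4450 bp in control, and the heights 5.13 and 20.6, with a counting interval of the ratio of 0.126 to 0.465. RNF167, MTRF1L and PDXK followed, with 278, 251 and 395 bp with butyrate and 3221, 2513 and 3796 bp in control.

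By the authors' fold, GLI3 and CMC1 stood near the ends of the range. The genes of this paragraph were picked for their extreme fold ratios among all kept peaks. Height was recovered from the same fold and −log10 p, so the picking alone favours height ratios far from 1. The counting intervals make no allowance for it, and nothing is read from their lying apart from 1. GLI3, a transcription factor of the Hedgehog pathway, had a fold of 10.8 with butyrate and 3.17 in control, and a height of 17.6 and 8.61, a ratio of 2.04 (1.17 to 3.73). Its peak (chr7:42236062-42237110) was 1049 bp wide with butyrate and 344 bp in control. RAP2A, a small GTPase, had a fold of 10.4 with butyrate and 2.71 in control, and DMC1, a recombinase of meiosis, had 10.5 and 3.55. The peak that holds the starts of both FAF1 and CDKN2C had 11.5 with butyrate and 3.85 in control. CMC1, an assembly factor of cytochrome c oxidase, had a fold of 2.42 with butyrate and 12.7 in control, and a height of 4.40 and 19.6, a ratio of 0.224 (0.107 to 0.435). The complex I subunit gene NDUFB4 had a height of 6.23 with butyrate and 21.5 in control, ANAPC15, a subunit of the anaphase-promoting complex, 5.50 and 23.4, SUMF1, which activates sulphatases, 8.80 and 21.5, and SHMT2, a mitochondrial enzyme of serine metabolism, 5.13 and 14.8. At each of these genes, and at CMC1, the butyrate peak covered only part of the control peak. Its height may thus be set against a summit that it does not cover. At SHMT2 a butyrate peak of 433 bp met 1 edge of a control peak of 2482 bp.

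The highest summit lay alike around gene starts in both libraries. More summits lay upstream with butyrate, in peaks chosen because the butyrate peak holds the start. In 3178 kept peaks with 1 protein-coding start and no other start within 3 kb of it, the highest summit lay a median of 188 bp downstream of the start with butyrate and 181 bp downstream in control. It lay downstream in 75.2% (73.7 to 76.7) of these peaks with butyrate and in 75.8% (74.3 to 77.3) in control. In bins of 100 bp the summits peaked between 100 and 200 bp downstream, at 35.2 per 100 peaks with butyrate and 35.9 in control. They fell off around the start, where the 100 bp just upstream held 7.80 summits per 100 peaks with butyrate and 6.64 in control. A second, lower maximum lay 200 to 300 bp upstream, with 24.2 summits per 100 peaks with butyrate and 17.9 in control.

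These peaks were chosen because the butyrate peak holds the start, with no such demand on the control peak. The choice by itself favours a longer reach around the start with butyrate, and its part was not tested. Summits stood more than 50 bp from the start on both sides in 61.8% of these peaks with butyrate and in 46.2% in control. They stood on the downstream side alone in 33.2% with butyrate and in 46.7% in control. The upstream edge of the peak lay at a median of −541 bp from the start with butyrate and −328.5 bp in control, and the downstream edge at 1201.5 bp and 1045.5 bp. Over all kept peaks, 39.5% were extended with butyrate on both sides, 24.2% upstream alone, 20.7% downstream alone and 15.6% on neither. The median extension was 37 bp upstream and 46 bp downstream of the closest gene, and these small medians depend on the setting: with rows up to 500 bp apart merged they were 256 and 324 bp, and downstream it was 83 bp among 1 to 1 pairs and 78 bp at a −log10 q of at least 5. The highest summit moved by a median of 90 bp between the libraries, and in 51.9% of peaks by at most 100 bp.

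**Figure D3:**
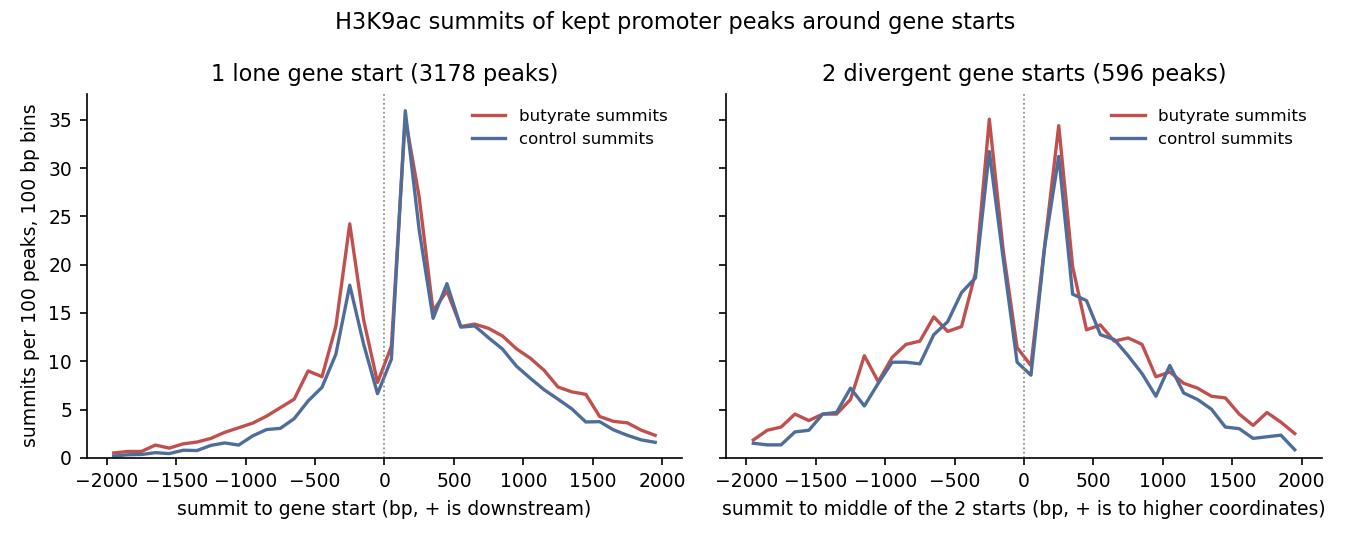
H3K9ac summits per 100 kept peaks in bins of 100 bp around 3178 lone gene starts (left, downstream to the right) and around the middle of 596 divergent pairs of starts (right), with butyrate and in control. Lone starts show a main maximum at 100 to 200 bp downstream. A lower one 200 to 300 bp upstream is higher with butyrate, at 24.2 against 17.9 summits per 100 peaks. Starts had to lie in the butyrate peak, with no such demand on the control peak.

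A kept peak held 1 annotated gene start in 48.3% of cases and none in 38.4%, where the peak lay beside the start. Starts were counted in the butyrate extent of a peak alone, which also enters the width ratio. Sorting alone thus favours wider butyrate peaks, and summits on both sides with butyrate, where starts were held. Its part was not tested. A divergent pair of starts, on opposite strands and at most 1000 bp apart, lay in 596 kept peaks or 5.71%, with a median gap of 137 bp. These peaks had 2 maxima of like height, with 35.1 summits per 100 peaks with butyrate and 31.7 in control on the side of lower coordinates, and 34.4 and 31.2 on the other side. Both sides held a summit in 89.9% of the divergent peaks with butyrate and in 79.9% in control. Their median width was 2281.5 bp with butyrate and 2010 bp in control. Peaks with 1 start had 1620 and 1320.5 bp, and peaks beside a start had 827 and 854 bp, with a median ratio of 1.01 for peaks beside a start and 1.22 for peaks with 1 start. The centre of a kept peak lay downstream of the start in 69.4% (68.5 to 70.3) of cases, against 46.1% (44.8 to 47.4) for the 5763 gained promoter peaks.

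H4K16ac was read in other libraries, so it is independent of the rule. Each peak name from the libraries labelled H4K16ac carries k12, and the antibody behind them cannot be told from the files. Its lists held 33752 peaks with butyrate and 73586 in control. Kept promoter peaks overlapped a butyrate H4K16ac peak in 3.46% (3.11 to 3.82) of cases, against 5.04% of all butyrate H3K9ac peaks, and a control H4K16ac peak in 21.4% (20.6 to 22.2), against 13.5%. Over whole peaks, gained promoter peaks met the butyrate list in 3.87% (3.39 to 4.40) of cases, an interval that overlaps that of kept ones, and shared peaks away from promoters met the control list in 1800 of 7821 cases (22.1% to 24.0%), so a share above that of all peaks is not particular to the promoter ones. Since kept peaks are wider than most, at a median of 1314 bp against 472 bp for all, the 500 bp around each peak centre were compared too, a window chosen after the shares over whole peaks were known. There the butyrate list was met at 0.804% (0.642 to 0.995) of kept promoter peaks, against 3.75% (3.27 to 4.27) of gained promoter peaks, 2.56% (2.22 to 2.93) of shared peaks away from promoters and 4.25% of all. The control list was met at 12.3% (11.7 to 13.0) of kept promoter peaks, 9.25% (8.51 to 10.0) of gained ones, 13.9% (13.1 to 14.7) of shared peaks away from promoters and 11.2% of all. In this window, the share of kept promoter peaks with a butyrate H4K16ac peak was thus lower than in each of the other classes, with intervals that did not overlap. With H4K16ac peaks of q at most 0.05 alone, the window held a butyrate peak at 1 kept and 2 gained promoter peaks, too few to set the classes apart.

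Around the 3178 lone starts, summits of the butyrate H4K16ac list were nearly absent near the start. The 500 bp upstream held 8 summits and the 500 bp downstream 3, against 116 between 1500 and 2000 bp upstream. The control list had 147 summits in the 500 bp upstream and 161 in the 500 bp downstream, and 374 between 500 and 1000 bp upstream. Most butyrate H4K16ac peaks are weak by the authors' own q. At a q of at most 0.05 that list has 381 peaks and the control list 29141, and kept promoter peaks then overlapped them in 4 cases (0.0383%) and in 1252 cases (12.0%). Of the kept promoter peaks, 188 overlapped both H4K16ac lists, 173 the butyrate list alone, 2048 the control list alone and 8037 neither. Kept peaks with H4K16ac in control were wider in both libraries, with medians of 1720 bp with butyrate and 1545 bp in control. Kept peaks without it had 1229.5 and 1110 bp. The median height ratio was 0.767 with it and 0.840 without it. The peaks with it were also higher in control, at 14.8 against 12.0, and tall control peaks were lower with butyrate in general. A wider peak also has more bases that can overlap a list. The part of width and control height was not tested. The IgG lists had 3 and 5 rows, with butyrate and in control, and overlapped 0 kept peaks.

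**Figure D4:**
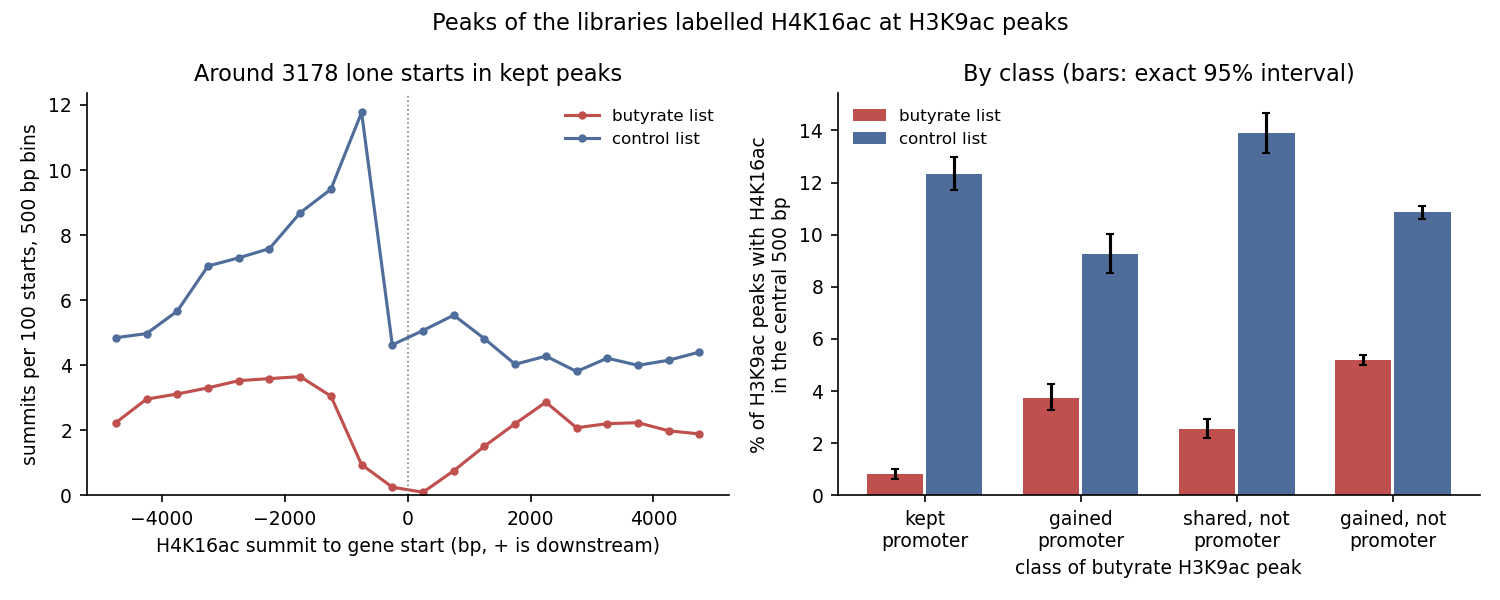
Left, summits of the libraries labelled H4K16ac per 100 lone starts in bins of 500 bp, with butyrate and in control. Right, the percentage of H3K9ac peaks of each class with an H4K16ac peak in the central 500 bp, with exact 95% intervals. Kept promoter peaks have the lowest share for the butyrate list (0.804%) and 12.3% for the control list.

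A kept promoter peak was found for 8057 of 15783 protein-coding genes with a start in the authors' columns, or 51% of them. A gene counted when its start lay in a kept peak or when the authors named it as the closest gene. A further 475 genes had their start in a peak of both lists whose centre lay beyond 1000 bp, 1862 genes (11.8%) had a gained promoter peak alone, 56 a control promoter peak alone and 5333 none. MYC is one of the 475, since the butyrate peak over its start was 6657 bp wide and its centre lay 1601 bp away. CDKN1A, HDAC1 and KAT8 had no kept promoter peak under this definition, which does not show that H3K9ac was absent near them, and GATA4 had no start in the columns. Over all genes with a kept peak, the median width was 1463 bp with butyrate and 1278 bp in control, and the median height was 10.6 and 12.9, with a median ratio of 0.830. Of these 7681 peaks, 5062 were wider with butyrate, and 5763 were lower on the background scale, 4991 scaled to depth and 2733 on the bare pileup. Since scaling to depth would raise every log2 height ratio by 0.11 and the bare pileup by 0.38, the lists below are read against that median.

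Genes of protein synthesis and energy metabolism kept the mark at most promoters, with a median height ratio under that of all genes. Of 43 cytosolic ribosomal protein genes, 33 had a kept promoter peak (76.7%, against 51% of all genes). All 33 were lower with butyrate on the background scale and scaled to depth, and 26 on the bare pileup, beside 5763, 4991 and 2733 of the 7681 peaks of all genes. Their median height was 9.53 with butyrate and 15.3 in control, the median ratio was 0.684 with a range of 0.438 to 0.894, and 30 of 33 lay under the median of all genes. RPL37 had 18.3 with butyrate and 26.8 in control, RPL22 12.1 and 18.2, RPLP1 10.3 and 21.5 and RPS28 7.33 and 16.7. All 4 encode proteins of the ribosome, a family with near-identical pseudogenes that could draw reads. Their widths varied widely, with RPS28 at 1084 bp with butyrate and 2464 bp in control, and RPS15 at 4170 and 2180 bp. Tall control peaks were lower with butyrate in general, and the control height of this list lies between those of the third and the highest quartile of kept peaks (13.9 and 17.7, with median ratios of 0.791 and 0.701).

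Respiratory chain genes were kept at 21 of 26 promoters (80.8%, 60.6 to 93.4, against 51% of all genes). UQCRFS1 and COX4I1 of this list had a control promoter peak alone, as had 56 of all 15783 genes. Of the 21 kept peaks, 20 were lower with butyrate on the background scale (5763 of 7681 over all genes), 19 scaled to depth and 16 on the bare pileup. Their median height was 9.53 with butyrate and 13.9 in control, and the median ratio 0.681. SDHB, the iron-sulphur subunit of complex II, had 8.06 with butyrate and 14.8 in control, NDUFA2 of complex I 9.90 with butyrate and 17.7 in control, and COX6C of complex IV 8.43 with butyrate and 14.8 in control. UQCRC1, whose promoter holds the YY1 core, had 11.0 and 12.9, and its peak was 783 bp wide with butyrate and 1329 bp in control. CYC1, cytochrome c1, was the exception in this list, with 10.6 and 8.13. Of 16 aminoacyl-tRNA synthetase genes, 12 were kept (75%, 47.6 to 92.7, an interval that spans the 51% of all genes). All 12 were lower on the background scale (5763 of 7681 over all genes), 10 scaled to depth and 8 on the bare pileup. RARS1, which charges arginine, had a height of 8.43 with butyrate and 19.6 in control. AARS1, whose CCAAT boxes are shown above, had 18.0 and 20.1, with a counting interval of the ratio of 0.580 to 1.38.

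Cell cycle and replication genes were kept at 19 of 25 promoters, against 51% of all genes, and 7 of 19 were wider with butyrate, against 5062 of 7681. The median of their width ratios was 0.847, while their median width was 1669 bp with butyrate and 1586 bp in control. MCM2, a subunit of the replicative helicase, had a height of 12.8 with butyrate and 22.9 in control, CCNB2 12.1 and 19.1, and CCND3 10.3 and 19.6. CDKN1B, an inhibitor of cyclin-dependent kinases, had 16.1 and 21.5, and its peak was 4612 bp wide with butyrate and 6225 bp in control. CDKN2C was the one member at least 1.5 times as high with butyrate, at 16.5 against 9.08. Cyclin D1, encoded by CCND1, had 12.1 and 12.0. Lower counts with butyrate were 17 of 19 on the background scale, 15 scaled to depth and 12 on the bare pileup. The proteasome was kept at 18 of 26 promoters (48.2% to 85.7%) and the spliceosome at 18 of 25 (50.6% to 87.9%), intervals that span the 51% of all genes. RNA polymerase II with its general factors was kept at 22 of 26 (65.1% to 95.6%). In this order the median height ratios were 0.779, 0.796 and 0.751. The bare pileup turned the proteasome and the spliceosome above 1, at 1.02 and 1.04. PSMD12 had a height of 12.8 with butyrate and 14.3 in control, the spliceosomal SNRPD3 16.1 and 20.1 and PRPF8 13.9 and 17.2, and POLR2H, a shared polymerase subunit, 20.5 and 18.2.

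**Figure D5:**
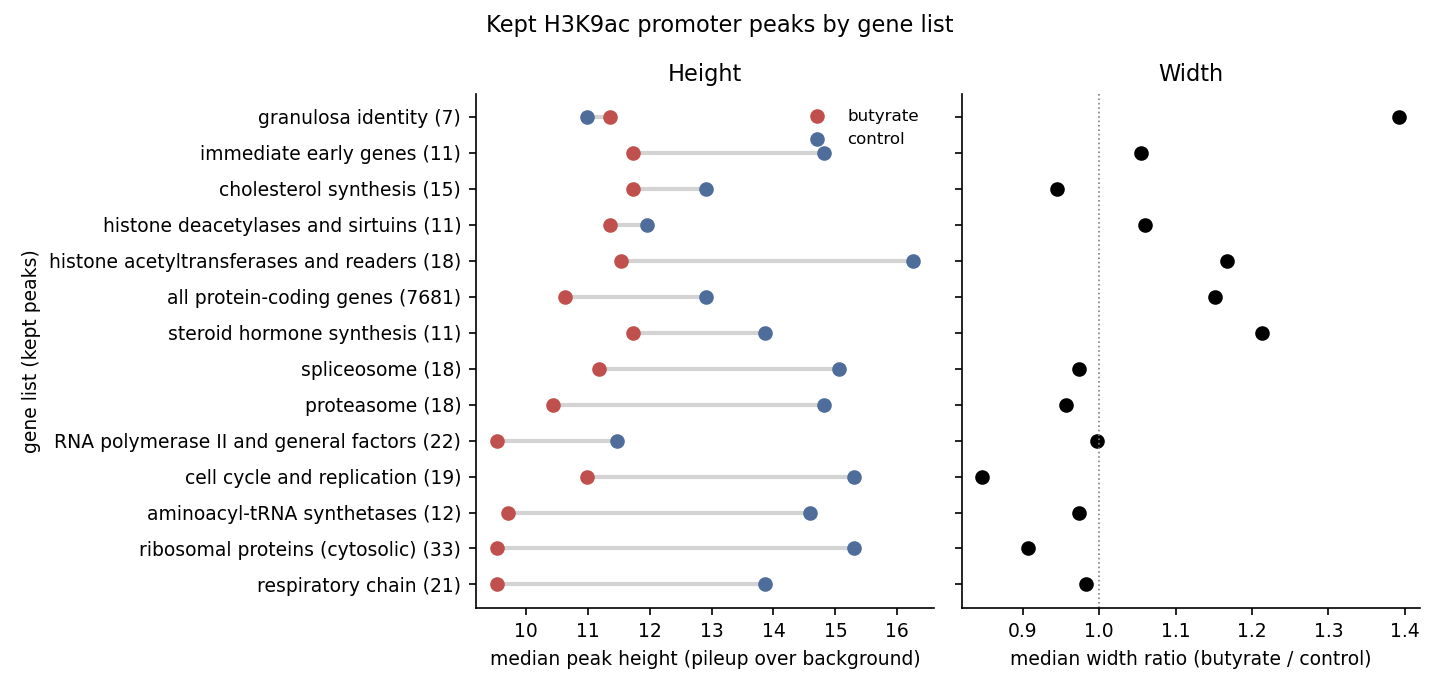
Left, median height (pileup over library background) of kept promoter peaks with butyrate and in control for each gene list with at least 7 kept peaks, whose number stands in parentheses. Right, the median width ratio, butyrate over control. Granulosa identity genes have the highest median height ratio (1.05) and width ratio (1.39), and the respiratory chain has the lowest height ratio (0.681).

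The granulosa identity genes had higher medians of both ratios than each of these lists, 1.05 for height and 1.39 for width. Low control peaks had higher ratios in general. The median control height of this list, 11.0, is that of the second quartile of kept peaks by control height, which had a median ratio of 0.871. Of 18 such genes with a start, 7 had a kept promoter peak (38.9%, 17.3 to 64.3, an interval that spans the 51% of all genes), 4 had a gained one and 7 none. All 7 were wider with butyrate, against 5062 of 7681 over all genes, and 1 of 7, KITLG, was lower on each of the 3 scalings, against 5763, 4991 and 2733 of 7681. FOXL2 (chr3:138946015-138948590) was 2576 bp wide with butyrate and 1985 bp in control, with a height of 12.5 and 12.4. RUNX2, a transcription factor of bone and of the ovary, was 1361 bp wide with butyrate and 511 bp in control, with a height of 12.5 and 10.5. NR4A1, an orphan nuclear receptor, was 5626 and 2706 bp wide, with 13.6 and 12.9. INHBB, the beta B subunit of activin and inhibin, was 1155 and 641 bp wide, with 10.6 and 9.08. INHA, the inhibin alpha subunit, had a kept peak of 323 bp with butyrate and 232 bp in control, with 7.70 and 6.22. BMPR2, a receptor of bone morphogenetic proteins, was 3086 and 2784 bp wide, with 11.4 and 11.0. KITLG, the ligand of the KIT receptor on oocytes, was 1569 and 1348 bp wide, with 9.90 and 13.9. With 7 peaks, counting intervals such as 0.584 to 1.74 for the height ratio of FOXL2 are wide. AMHR2, FST, WNT4 and BMPR1B had a gained promoter peak, and AMH, NR5A1 and ESR2 had none by this definition.

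Steroid hormone synthesis genes were kept at 11 of 18 promoters, or 61.1% (35.7 to 82.7), an interval that spans the 51% of all genes. Of the 11, 8 were wider with butyrate, near the 5062 of 7681 of all genes. The cholesterol side-chain cleavage enzyme gene CYP11A1 (chr15:74364401-74367971) was 3571 bp wide with butyrate and 1857 bp in control, and its height was 13.9 and 17.2. The mitochondrial translocator gene TSPO was 3140 and 1690 bp wide, with 14.3 and 14.8. ADCY9, an adenylyl cyclase, was 1447 and 678 bp wide, with 12.8 and 10.5. SRD5A1, a steroid 5-alpha-reductase, had the highest peak of the list, at 23.8 with butyrate and 30.6 in control. CREB1, a cAMP-responsive factor, had 9.90 and 17.7. Of the 11, 7 were lower on the background scale, 6 scaled to depth and 3 on the bare pileup. PPARG, whose promoter is shown above, had a height of 11.4 with butyrate and 7.65 in control, with widths of 968 and 926 bp.

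Histone deacetylases, of which butyrate inhibits class I and class IIa, were listed together with sirtuins. This list was kept at 11 of 17 promoters, or 64.7% (38.3 to 85.8), an interval that spans the 51% of all genes. HDAC6, a cytoplasmic deacetylase, had a height of 21.3 with butyrate and 15.3 in control, a ratio of 1.39 (0.887 to 2.21). HDAC5 had 11.4 and 7.17, and its peak was 1587 bp wide with butyrate and 304 bp in control. HDAC2 had 9.16 and 9.56, HDAC3 12.1 and 15.8 and HDAC8 11.0 and 13.4. SIRT5, a mitochondrial sirtuin, had 14.3 with butyrate and 20.6 in control. Of the 11 peaks, 8 were lower with butyrate on the background scale, near the 5763 of 7681 of all genes, 6 scaled to depth and 1 on the bare pileup, and 3 lay under the median ratio of all genes.

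Markers of other cell types mostly had no kept promoter peak. The counts were 0 of 9 for blood and immune markers, 0 of 6 for endothelial markers and 1 of 10 for epithelial markers, against 51% of all genes. They were 1 of 7 for theca and stroma (0.361% to 57.9%), 1 of 7 for oocyte (0.361% to 57.9%) and 2 of 10 for neuron markers (2.52% to 55.6%). These last intervals span the 51%. The exceptions were MUC1, NR2F2, GDF9, GAD1 and TUBB3. In the order of the lists, 3, 1, 2, 3, 0 and 1 markers had a gained promoter peak alone, against 11.8% of all genes. TUBB3, a neuronal tubulin, was 3027 bp wide with butyrate and 728 bp in control, with a height of 8.80 and 8.61. GDF9, an oocyte growth factor, had a height of 8.43 with butyrate and 15.8 in control.

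The share of butyrate promoter peaks that were kept varied by chromosome, from 53.4% (50.6 to 56.3) on chromosome 19 to 79.1% (75.1 to 82.7) on chromosome 4. Chromosomes 16, 17, 20 and 22 had 53.9%, 54.6%, 57.2% and 54.5%, and chromosomes 13 and X had 78.6% and 74.5%. At the 1000 bp limit itself, PHF13, ZBTB8A and CENPF were just inside, each with its centre at 1000 bp, and ZBTB5, C15orf62 and FAF2 were just outside, at 1001, −1001 and −1002 bp. The 639 kept peaks with a centre at 900 to 1000 bp had a median width of 1738 bp with butyrate and 1448 bp in control. The 516 shared peaks at 1000 to 1100 bp had 1802 and 1377.5 bp.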

How the data were processed

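Peak lists of 6 libraries of KGN cells were used: H3K9ac, H4K16ac and IgG, each with butyrate and in control, 1 library each. CASAVA 1.7, MACS2 2.1.0 and the build hg19 (GRCh37) are named in the submitters' processing notes. The aligner and the handling of duplicate reads were not given in the sources used here. The gene starts that the authors deposited had a median distance of 66 bp to the nearer end of the RefSeq gene of the same name on GRCh38.p14, on the same chromosome for 15783 of 15783 genes, so coordinates are read as GRCh38. Deposited starts count from 0 and are printed with 1 added. The authors' fold is a ratio, the pileup at a summit over its local background, and the deposited p and q columns are −log10 values of MACS2, per the file headers. The deposited score, 10 times the −log10 q cut to a whole number in the H3K9ac lists, was not used. The deposited distance is that of a peak's centre to the closest gene start.

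Rows that shared bases were merged and lists compared by overlap of at least 1 bp. Pileup and background were solved from fold and −log10 p for 100% of summits, and the implied depth was 29.4 M reads with butyrate and 24.3 M in control. The computation was tested on simulated data. With 1 library per condition no test was possible. Members, gene lists and the rule for named genes were chosen with earlier results of these data known. The rule takes the 5 widest peaks, the 5 largest and smallest width and fold ratios, the 5 that join most control peaks, up to 3 genes per list by −log10 q and 10 anchor genes. Further list members were named after their values were seen. Genes with several kept peaks are given by the one with the highest −log10 q. Python 3.11.15, numpy 2.4.6, pandas 2.3.3, scipy 1.17.1 and matplotlib 3.10.9 were used. The alternatives changed the promoter limit, the overlap, the strength limit, the list length, the merging, the gene starts and the scaling.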

Additional observations from a re-analysis of the deposited data

How the results depend on the processing

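The number of kept promoter peaks ranged from 8534 to 13903 and that of their genes from 7088 to 9126 over 6 alternatives each, all within 1.5 times the values given above. The kept share of butyrate promoter peaks was 50.4% with a limit of 2500 bp, 62.7% with an overlap of at least 50% of the narrower peak, 76.2% at a −log10 q of at least 5, 88.1% with equal numbers of top peaks, 70.8% with rows up to 500 bp apart merged and 70.6% with RefSeq starts. In the order overlap of 50%, −log10 q of at least 5, equal numbers, rows merged and 1 to 1 pairs, the median width ratio was 1.17, 1.19, 1.15, 1.38 and 1.26, and the fold ratio was 0.934, 0.914, 0.960, 0.946 and 0.954. The share at least 1.5 times as wide was 28.7%, 30.1%, 27.0%, 42.2% and 35.5%. The upstream extension was 256 bp with rows merged and 47 bp in 1 to 1 pairs, and the downstream one 78 bp at the stricter q, 60 bp with equal numbers, 324 bp with rows merged and 83 bp in 1 to 1 pairs.

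The height ratio was 0.812 at the stricter q, 0.840 with equal numbers, 0.833 with rows merged, 0.847 in 1 to 1 pairs and 0.889 scaled to depth. It turned to 1.07 on the bare pileup, which by construction takes no account of depth. The share lower with butyrate was 80.3%, 73.6%, 75.4%, 71.6%, 65.9% and 37.6% in the same order. Overlap with control H4K16ac was 23.4% at the stricter q and 22.6% with equal numbers, 12.0% for H4K16ac peaks of q at most 0.05 and 12.3% in the central 500 bp. For butyrate H4K16ac it was 3.97% with a limit of 2500 bp, 0.0383% at that q and 0.804% in the central 500 bp. The alternatives for height and the central window were added after the data had been seen. The cause of these shifts was not tested.

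No paired analysis was possible because each condition has 1 library per antibody. Without replicates, no spread between cultures is known, and counting alone leaves a height ratio such as that of FOXL2 between 0.584 and 1.74. Promoters under the calling limit of the control list count as gained, and 475 genes with a start in a shared peak are left out because its centre lies beyond 1000 bp.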

Other observations

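Genes of histone acetylation itself kept the mark at 18 of 23 promoters, against 51% of all genes, and 14 of the 18 peaks were wider with butyrate, against 5062 of 7681 over all genes. KAT2B, an acetyltransferase that places H3K9ac, had a height of 11.4 with butyrate and 6.22 in control, and its relative KAT2A had 14.7 and 16.7 with widths of 2011 bp and 960 bp. EP300, a general coactivator, had 11.7 with butyrate and 17.7 in control, and MSL1, a scaffold of the complex that acetylates H4K16, had 16.9 and 14.8. BRD9, a bromodomain reader, had the highest peak of the list, at 27.1 with butyrate and 25.8 in control. Of the 18, 15 were lower on the background scale, against 5763 of 7681 over all genes, 13 scaled to depth and 6 on the bare pileup.

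Cholesterol synthesis genes were kept at 15 of 20 promoters (75%, 50.9 to 91.3, an interval that spans the 51% of all genes), and differed among themselves. FDPS, farnesyl diphosphate synthase, had a height of 11.7 with butyrate and 22.9 in control, CYP51A1 13.6 and 23.4, and NSDHL 11.7 and 6.69. SREBF1, a transcriptional regulator of lipid synthesis, was 5278 bp wide with butyrate and 3525 bp in control. Among 20 immediate early genes, which respond to signals within minutes, 11 were kept, or 55% (31.5 to 76.9), near the 51% of all genes. FOSB was 2001 bp wide with butyrate and 460 bp in control, with a height of 11.4 and 8.61, while KLF6 had 9.90 and 18.6 and JUND 11.7 and 19.6. Of these 11, 7 were lower on the background scale, against 5763 of 7681 over all genes, 5 scaled to depth and 4 on the bare pileup.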
